A study of Homo sapiens with 18 samples.

Results

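The genes described here are 10 targets and effectors of the integrated stress response: the transcription factors ATF4, ATF3 and DDIT3, the feedback regulator TRIB3, the amino acid enzymes ASNS, PSAT1 and PHGDH, and the stress effectors CHAC1, SESN2 and INHBE. They were chosen by name, as every probe whose platform gene symbol was 1 of the 10. The array held 16 such probes, and all 10 genes were found among the 20046 genes it named and among the 11600 genes tested. RNA of 6 human pancreatic cancer lines, grown as cultures of tumour cells, was read on Illumina HT-12 v4 bead arrays, on which an oligonucleotide probe reports a transcript as a brightness. MiaPaCa2, Panc1 and SU8686 were labelled resistant to dasatinib, which blocks SRC family and other tyrosine kinases, and Panc0403, Panc0504 and Panc1005 were labelled sensitive. Each line had 3 arrays, given by the study as biological triplicates, and the labels name no drug or stress treatment of any group. No genotype, edit or transgene is given for any line, so response to dasatinib is a property of a line and 3 lines stand for each response.

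The integrated stress response begins when 1 of the eIF2 kinases phosphorylates the translation factor eIF2: EIF2AK3 (PERK) during endoplasmic reticulum stress, EIF2AK4 (GCN2) during amino acid shortage, EIF2AK2 (PKR) with double-stranded RNA, or EIF2AK1 (HRI) during heme shortage. Protein synthesis then falls in general, while the ATF4 messenger is translated more, and ATF4 with its partners switches on genes of amino acid supply, redox balance and cell death. Much of the control of ATF4 is therefore at translation, which an array of RNA does not read. In pancreatic cancer the pathway is studied because these tumours grow with limited nutrients and a heavy secretory load.

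Some ATF4 targets carry a composite C/EBP-ATF element in their promoters, here searched as TGATGNAA on both strands. In windows from 250 bases before to 50 bases after each RefSeq transcription start (GRCh38.p14), 3.62% of 35116 windows of all genes held it. Of the 10 genes, 9 had windows, 15 in all, and 3 of these windows held the letters, in ASNS, ATF3 and CHAC1. Stretches of 68 bases around these matches are shown because they hold the only matches among these windows, in genes whose levels moved in the same direction between many arrays. The ASNS match began 68 bases before the start (chr7:97872439-97872506, minus strand), the ATF3 match 191 bases before it (chr1:212565186-212565253, plus strand), and the CHAC1 match 209 bases before it, on the opposite strand to the gene (chr15:40953232-40953299, plus strand). They read 5′ to 3′ along the gene, with the match in capitals:
ASNS: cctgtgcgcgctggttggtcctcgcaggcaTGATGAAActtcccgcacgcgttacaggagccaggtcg
ATF3: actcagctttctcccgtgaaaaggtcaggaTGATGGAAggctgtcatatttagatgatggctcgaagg
CHAC1: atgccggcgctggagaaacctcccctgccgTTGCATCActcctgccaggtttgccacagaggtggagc
A match describes the letters only, and the arrays do not measure binding.

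Replicate 2 of every line stood apart, so all values are given for replicate 2 and for replicates 1 and 3 separately. Across the 11600 genes, replicate 2 correlated with the other arrays of its labelled line at r = 0.851 to 0.897, whereas replicates 1 and 3 correlated with each other at 0.994 to 0.996. The array nearest to each replicate 2 array was replicate 2 of the other line on its slide (r = 0.990, 0.915 and 0.991 on slides 1, 2 and 3). Genes are not independent replicates, and these correlations only describe the arrays. The labels do not settle whether names or cultures of replicate 2 were exchanged, so each replicate 2 value, and each shift within a line, holds for the arrays as labelled. Epithelial markers also moved: on replicate 2 all 6 were detected in MiaPaCa2 and Panc1, with summed linear levels of 32564 and 26224, against 3 of 6 and 5146 to 5498 on replicates 1 and 3, where EPCAM, CDH1 and KRT7 were not detected. The other 4 lines had 6 of 6 on every array, summing to between 50192 and 78600. Array codes placed MiaPaCa2 and Panc1 on slide 3, SU8686 and Panc1005 on slide 2, and Panc0403 and Panc0504 on slide 1, so slide and response can be told apart within slide 2 alone. From 31% to 35% of probes were detected per array, and in bulk RNA fewer cells with a transcript and less of it per cell cannot be told apart.

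Detection, taken as a detection p under 0.01 against the array's negative controls, divided the genes into 7 that were lit in nearly every array and 3 that were not. ATF4, DDIT3, TRIB3, ASNS, PSAT1 and PHGDH were detected on all 18 arrays, and ATF3 on 16, missing from replicates 1 and 3 of Panc1. SESN2 was detected on 9 arrays, CHAC1 on 6 and INHBE on 5. All 10 genes were detected together on only 5 arrays: replicate 2 of Panc1005, and replicates 1 and 3 of Panc0403 and of Panc0504. The other 13 arrays had 7 to 9 of them. By the probe used for each gene, the same 5 arrays held the highest levels. Each of the 4 arrays from Panc0403 and Panc0504 placed all 10 genes among the 5 highest of 18 values, replicate 2 of Panc1005 placed 9 there, replicate 3 of Panc1005 placed 1, and the remaining 12 arrays placed 0.

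**Figure D1:**
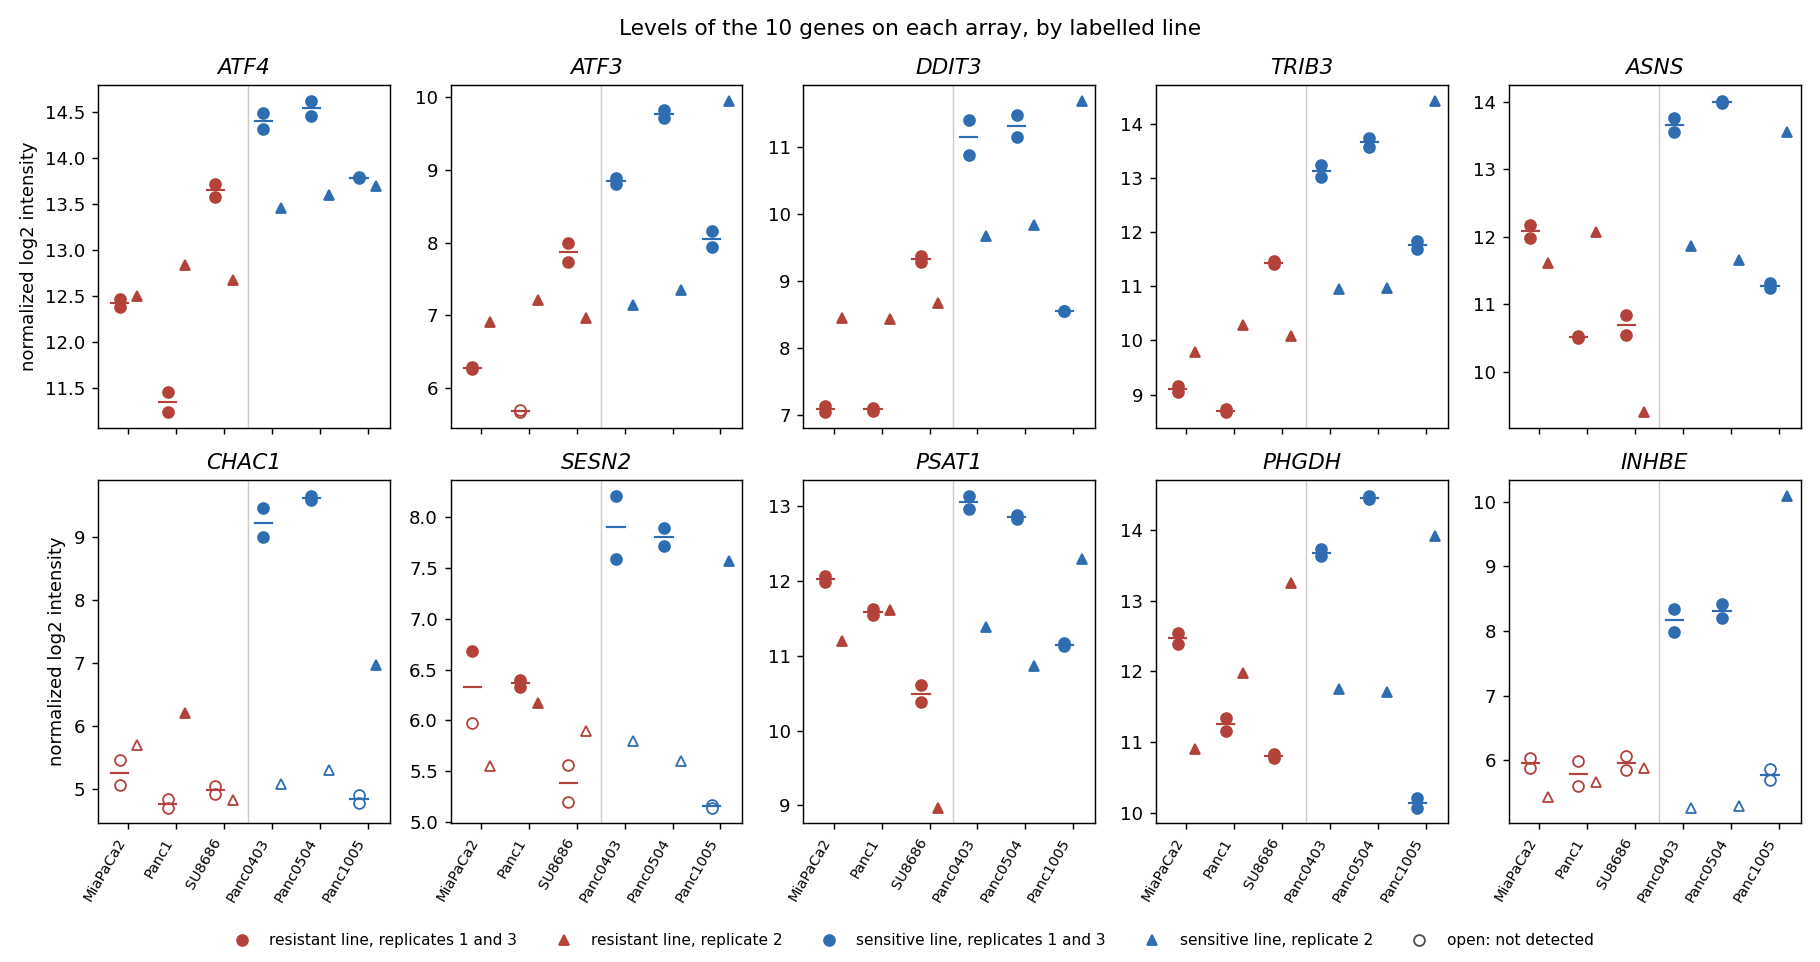
Normalized log2 intensity (y axis, own scale per gene) of the 10 genes on each of the 18 arrays, by labelled line (x axis), with circles for replicates 1 and 3, triangles for replicate 2, open symbols for arrays without detection and short bars for the mean of replicates 1 and 3. Replicates 1 and 3 of Panc0403 and Panc0504 and replicate 2 of Panc1005 stand at or near the top in nearly every panel.

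On replicates 1 and 3, by the probe used for each gene, the pathway was brightest in Panc0403 and Panc0504 for every one of the 10 genes. It was dimmest in MiaPaCa2 or Panc1 for the transcription factors and TRIB3. ATF4, the factor at the centre of the response, had normalized log2 levels of 12.47 and 12.38 in MiaPaCa2, 11.46 and 11.24 in Panc1 and 13.72 and 13.57 in SU8686. In the sensitive lines it had 14.48 and 14.31 in Panc0403, 14.45 and 14.62 in Panc0504 and 13.78 and 13.79 in Panc1005. On the probe used, every resistant array was below every sensitive one, though SU8686 and Panc1005 lay only 0.14 apart in their means. Another ATF4 probe, given below, did not separate the responses.

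ATF3, a stress-induced bZIP factor downstream of ATF4, had 6.29 and 6.27 in MiaPaCa2, 5.67 and 5.70 in Panc1, where it was not detected, and 7.74 and 8.0 in SU8686. It had 8.89 and 8.80 in Panc0403, 9.71 and 9.82 in Panc0504 and 7.94 and 8.16 in Panc1005. The arrays of SU8686 and Panc1005 overlapped. DDIT3 encodes CHOP, a factor tied to cell death under lasting stress, and had 7.04 and 7.14 in MiaPaCa2, 7.11 and 7.06 in Panc1 and 9.37 and 9.29 in SU8686, against 11.41 and 10.89 in Panc0403, 11.15 and 11.48 in Panc0504 and 8.55 and 8.55 in Panc1005. Here the groups overlapped, since resistant SU8686 was above sensitive Panc1005.

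TRIB3, a pseudokinase induced by ATF4 and CHOP that feeds back on them, had 9.15 and 9.05 in MiaPaCa2, 8.73 and 8.67 in Panc1 and 11.46 and 11.41 in SU8686. Its sensitive lines had 13.24 and 13.01 in Panc0403, 13.58 and 13.73 in Panc0504 and 11.83 and 11.69 in Panc1005. Its line means ranged over 4.95 on the log2 scale, and the 3 resistant lines lay below the 3 sensitive ones.

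The amino acid enzymes followed another order among the lower lines. ASNS makes asparagine from aspartate, and had 11.98 and 12.18 in MiaPaCa2, 10.50 and 10.53 in Panc1 and 10.84 and 10.54 in SU8686, against 13.76 and 13.56 in Panc0403, 13.99 and 14.02 in Panc0504 and 11.31 and 11.24 in Panc1005. MiaPaCa2 was above Panc1005, so the responses overlapped.

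PHGDH, which takes the first step of serine synthesis from a glycolytic intermediate, had 12.55 and 12.39 in MiaPaCa2, 11.34 and 11.16 in Panc1 and 10.78 and 10.83 in SU8686. In sensitive lines it had 13.74 and 13.63 in Panc0403, 14.44 and 14.49 in Panc0504 and 10.07 and 10.20 in Panc1005. Panc1005 was the lowest of the 6 lines although labelled sensitive. PSAT1, the transaminase of the next step, had 11.99 and 12.07 in MiaPaCa2, 11.63 and 11.55 in Panc1 and 10.38 and 10.61 in SU8686, against 13.14 and 12.97 in Panc0403, 12.83 and 12.89 in Panc0504 and 11.13 and 11.17 in Panc1005. MiaPaCa2 and Panc1 were above Panc1005 for both serine enzymes.

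The 3 dim genes were close to on or off. CHAC1, an enzyme that breaks down glutathione, was not detected on replicates 1 and 3 of MiaPaCa2 (5.46 and 5.07), Panc1 (4.84 and 4.71) or SU8686 (5.05 and 4.92). In sensitive lines it was bright in Panc0403 (9.47 and 9.0) and Panc0504 (9.59 and 9.66) and not detected in Panc1005 (4.91 and 4.79). The lowest level of a detected probe was between 5.91 and 6.20 per array, so undetected values have no order among themselves.

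INHBE, a secreted subunit of the activin family, had the same pattern: it was not detected in MiaPaCa2 (5.88 and 6.03), Panc1 (5.60 and 5.99), SU8686 (5.85 and 6.07) or Panc1005 (5.70 and 5.86) and was detected in Panc0403 (8.34 and 7.99) and Panc0504 (8.20 and 8.41). SESN2, a stress-induced leucine sensor that restrains mTORC1, was detected on 1 array of MiaPaCa2 (6.68, with 5.97 on the other), on both of Panc1 (6.33 and 6.40) and on neither of SU8686 (5.56 and 5.20). Among sensitive lines it was detected in Panc0403 (8.21 and 7.59) and Panc0504 (7.72 and 7.89) and not in Panc1005 (5.17 and 5.14). All 3 were therefore highest in the same pair of lines.

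The lines differed for each of the 10 genes on these 12 arrays, beyond the spread of replicates 1 and 3. Lines on different slides also differ in slide, and the test does not separate line from slide. The moderated F test of limma between the 6 lines called 10 of 10 (adjusted p from 1.27e-10 for TRIB3 to 4.59e-06 for SESN2), where 65.6% of all genes were called, and the largest gap between replicates 1 and 3 of any gene in any line was 0.71. The range of line means had a median of 3.79 over the 10 genes, with undetected levels taken as normalized, against 1.30 over all tested genes. Neighbours in the order did not always differ: Panc0504 and Panc0403 overlapped in their arrays for ATF4, DDIT3, SESN2 and INHBE, SU8686 and Panc1005 for ATF3, and MiaPaCa2 and Panc1 for DDIT3 and SESN2. With all 3 replicates in the fit, 6 of the 10 were called, where 29.8% of all genes were, and CHAC1, SESN2, PHGDH and INHBE were not.

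Of these genes, 3 differed beyond the limits between resistant lines on slide 3 and 0 between sensitive lines on slide 1. Between Panc0504 and Panc0403, 0 of 10 genes passed an adjusted p under 0.05 with a log2 difference of at least 1, where 7.41% of all genes did. The largest was ATF3, higher in Panc0504 by 0.92 (SE 0.11, limma adjusted p = 0.000129). Between Panc1 and MiaPaCa2, 3 genes passed and were lower in Panc1, where 2.69% of all genes passed: ATF4 by -1.08 (SE 0.11), ASNS by -1.57 (SE 0.12) and PHGDH by -1.22 (SE 0.10). Their limma adjusted p-values were 0.000135, 3.11e-05 and 3.81e-05. None of the 3 passed with replicate 2 included.

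Slide 2 gives the only comparison of a resistant with a sensitive line on 1 slide, and there the genes did not move one way on replicates 1 and 3. In SU8686 minus Panc1005, 5 genes were higher and 5 lower, with a median of 0.00, or 2 higher and 5 lower among the 7 detected in either line, and 0 of 10 passed both limits, where 4.84% of all genes did. DDIT3 was higher in SU8686 by 0.79 (SE 0.16, limma adjusted p = 0.00402) and PHGDH by 0.67 (SE 0.10, adjusted p = 0.000672). PSAT1 was lower in SU8686 by -0.65 (SE 0.10, limma adjusted p = 0.000905) and ASNS by -0.58 (SE 0.12, adjusted p = 0.00434). TRIB3 was lower in SU8686 by -0.32 (SE 0.10, limma adjusted p = 0.0334). ATF4 differed by -0.14 (SE 0.11) and ATF3 by -0.18 (SE 0.11), which did not pass limma's test (adjusted p = 0.365 and 0.226).

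The design asks which genes separate resistant from sensitive lines. On line means of replicates 1 and 3, all 10 genes were lower in the resistant lines, with a median log2 difference of -1.82 (-1.79 with CHAC1 and INHBE at their bounds, given below) against 0.04 over all genes, but 0 of 10 passed limma's moderated test at an adjusted p under 0.05, as 0% of all genes did (0 of 11600). At an unadjusted p under 0.05, 4 of the 10 genes passed, ATF4, ATF3, DDIT3 and TRIB3, and 15.5% of all genes. TRIB3 averaged 9.75 ± 1.48 over the resistant lines, against 12.85 ± 0.98 over the sensitive ones (SD, n = 3 lines per response), a difference of -3.10 (SE 0.84, limma adjusted p = 0.316). ATF4 averaged 12.47 ± 1.15 over the resistant lines, against 14.24 ± 0.40 over the sensitive ones (SD, n = 3 lines per response), a difference of -1.76 (SE 0.59, limma adjusted p = 0.316). In resistant lines CHAC1 was at least 3.53-fold and INHBE at least 2.52-fold lower, each a bound because no resistant array detected it. The sensitive mean in each bound includes Panc1005, where the gene was not detected, so these sizes rest partly on background values.

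Those means hid unlike lines. The pair on slide 3 was below the pair on slide 1 for all 10 genes, by -1.15 (PSAT1) to -4.49 (TRIB3), while the pair on slide 2 was divided as above. Line values of the responses did not overlap for 3 genes, ATF4, ATF3 and TRIB3, all lower in resistant lines. Of all genes, 17.9% did not overlap and 8.02% did so with resistant lines lower. Without SU8686, ATF4, ATF3 and TRIB3 passed limma's test (adjusted p = 0.0272, 0.0299 and 0.0174), where 14% of all genes did. Without Panc1005, CHAC1 and INHBE passed (adjusted p = 0.00398 and 0.00913), where 4.78% of all genes did. No resistant array of these replicates detected either gene, and Panc1005 was the sensitive line that did not. Leaving it out sets detected levels of Panc0403 and Panc0504 against background levels, so these 2 passes say little about response. With slide as a block, which leaves the response to slide 2, DDIT3 and PHGDH turned positive, and so did CHAC1, SESN2 and INHBE, which neither line of that slide showed above background. The lines of slide 3 also had few epithelial markers, as given above, and the part of cell state or slide in these differences was not tested.

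**Figure D2:**
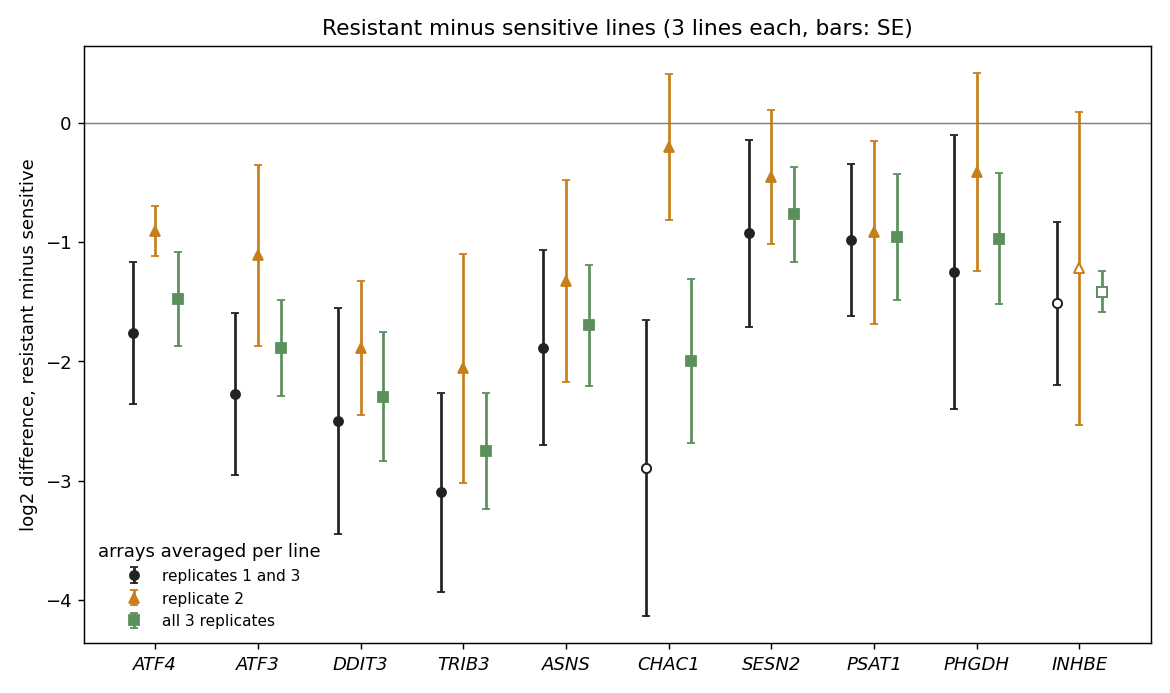
Log2 difference, resistant minus sensitive lines (y axis), for each gene (x axis), from limma on 3 line means per response, with bars of 1 SE, for replicates 1 and 3 (circles), replicate 2 (triangles) and all 3 replicates (squares). Open symbols mark differences from a response in which no array detected the gene, whose size rests on values not above background. All points lie below 0, and TRIB3 lies between -3.10 on replicates 1 and 3 and -2.06 on replicate 2. On replicate 2, CHAC1 and SESN2 were above background in Panc1 and Panc1005 alone, so their direction is not established.

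On replicate 2, too, all 10 fitted differences were negative, with a median of -1.02 (-0.91 with INHBE at its bound). The lines behind them were others than on replicates 1 and 3. CHAC1 (-0.21, SE 0.61) and SESN2 (-0.45, SE 0.56) were above background there in resistant Panc1 and sensitive Panc1005 alone. Their differences rest mostly on undetected values, so a lower level of these genes in resistant lines is not established. Limma called 0 of 10 genes, where 0.19% of all genes were called, and 2 of the 10, ATF4 and DDIT3, passed at an unadjusted p under 0.05, where 17.1% of all genes did. ATF4 had 12.50, 12.84 and 12.68 in MiaPaCa2, Panc1 and SU8686 and 13.46, 13.60 and 13.69 in Panc0403, Panc0504 and Panc1005, a difference of -0.91 (SE 0.21, limma adjusted p = 0.166). DDIT3 had 8.45, 8.43 and 8.68 in those resistant lines and 9.68, 9.84 and 11.70 in the sensitive ones, a difference of -1.89 (SE 0.56, limma adjusted p = 0.21). ATF4, DDIT3 and TRIB3 did not overlap between responses, as 22.7% of all genes did not.

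Within slide 2 the replicate 2 values were far apart. SU8686 was below Panc1005 for all 10 genes, and by -0.66 (PHGDH) to -4.35 (TRIB3) among the 7 genes detected in both. TRIB3 had 10.08 in SU8686 and 14.43 in Panc1005, and ASNS had 9.40 in SU8686 and 13.56 in Panc1005. Between slide 3 and slide 1 the difference was smaller: of the 7 genes detected on all 4 arrays, 2 were higher and 5 lower on slide 3, over a range of -1.32 to 0.28. CHAC1 and SESN2 were detected in Panc1 alone of these 4 arrays, and INHBE in none.

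Over all 18 arrays the median difference was -1.59, also with INHBE at its bound, and 0 of 10 genes passed limma's test, where 0% of all genes did. An unadjusted p under 0.05 was reached by 7 of the 10, ATF4, ATF3, DDIT3, TRIB3, ASNS, CHAC1 and INHBE, and by 18.9% of all genes. The line means of the same 7 did not overlap between responses, against 21.8% of all genes, or 9.71% in the lower direction. The CHAC1 means nearest each other, 5.41 in resistant MiaPaCa2 and 5.56 in sensitive Panc1005, were both below the level of detected probes. Of the arrays behind them only replicate 2 of Panc1005 (6.97) detected CHAC1. Their order rests mostly on undetected values and is not established, which leaves 6 genes. INHBE had the smallest p of the 10, with 0 resistant arrays and 5 sensitive arrays of 9 detecting it, and in resistant lines it was at least 2.27-fold lower (limma adjusted p = 0.208). Its detecting arrays came from replicates 1 and 3 of 2 lines and from replicate 2 of the third. The sensitive mean in the bound also includes the sensitive arrays that did not detect it. Without SU8686, limma called ATF4, ATF3, DDIT3, TRIB3 and INHBE, and 20.1% of all genes. Without Panc1005 it called CHAC1, PHGDH and INHBE, and 3.15% of all genes. Of the resistant arrays, 1 detected CHAC1 and 0 detected INHBE, so the calls of these 2 genes rest largely on background values.

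Replicate 2 was where the pathway changed most within a labelled line. In Panc0403 and Panc0504, replicate 2 was lower than replicates 1 and 3 for 10 of 10 genes in each line, with medians of -1.87 and -2.39 (-1.83 and -2.26 with undetected genes at their bounds), and a fit with 1 shift per slide called 9 of 10 lower on slide 1, where 18.7% of all genes were called in either direction. ATF4 shifted by -0.94 (SE 0.25, limma adjusted p = 0.00776), short of the limit of 1 on the log2 scale. Without replicate 1 or without replicate 3, limma called 5 and 6 of the 10 genes, where 16.8% and 17.5% of all genes were called, and DDIT3, TRIB3 and ASNS were called under neither.

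CHAC1, SESN2 and INHBE fell below detection on slide 1. CHAC1 was not detected on replicate 2 of Panc0403 (5.09) or Panc0504 (5.30), against 9.47 and 9.0, and 9.59 and 9.66, on replicates 1 and 3, at least 9.26-fold and 11.2-fold lower. INHBE was not detected on replicate 2 of Panc0403 (5.27) or Panc0504 (5.29), at least 4.42-fold and 4.50-fold lower than on replicates 1 and 3. SESN2 was not detected on replicate 2 of either line (5.80 and 5.60), at least 3.68-fold and 3.18-fold lower. PHGDH had 11.75 and 11.71 on replicate 2 of Panc0403 and Panc0504, and its slide shift was -2.35 (SE 0.40, limma adjusted p = 0.000296).

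Panc1005 moved the opposite way. Its replicate 2 was higher than its replicates 1 and 3 for 9 of 10 genes, with a median of 2.35 (2.09 with undetected genes at their bounds), and only ATF4 was not (13.69 against 13.78 and 13.79). INHBE was detected on its replicate 2 alone (10.09), at least 15.3-fold higher than on replicates 1 and 3, and SESN2 (7.57) and CHAC1 (6.97) at least 2.67-fold and 1.76-fold higher. DDIT3 had 11.70 on replicate 2 against 8.55 and 8.55 on replicates 1 and 3, and PHGDH had 13.92 against 10.07 and 10.20. Replicate 2 of Panc1005 was the highest of all 18 arrays for 4 genes.

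SU8686, on the same slide, did not follow. CHAC1, SESN2 and INHBE were not detected on any of its arrays. Of the 7 genes that were, 6 were lower on its replicate 2 and PHGDH was higher. PHGDH had 13.26 on replicate 2 against 10.78 and 10.83 on replicates 1 and 3, whereas PSAT1 had 8.97 against 10.38 and 10.61, so the 2 enzymes of serine synthesis went opposite ways there. Because the fit had 1 shift per slide, it averaged both lines: 3 genes were called higher on slide 2, where 26% of all genes were called. These were PHGDH (3.12, SE 0.40, limma adjusted p = 1.94e-05), INHBE (limma adjusted p = 0.0102) and SESN2 (limma adjusted p = 0.00211). INHBE and SESN2 were detected on replicate 2 of Panc1005 and on no other array of the slide, so their size is given by the bounds above. Without replicate 1 limma called PHGDH and SESN2, and without replicate 3 PHGDH alone, where 25.1% and 24.8% of all genes were called. DDIT3 was called and SESN2 was not when background was left in or the deposited log2 values were used.

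On slide 3, by the probe used for each gene, the transcription factors and TRIB3 had higher values on replicate 2 in both lines, and the enzymes were mixed. The ATF4 difference in MiaPaCa2 was small (12.50 against 12.47 and 12.38). Both other ATF4 probes were lower on replicate 2 of MiaPaCa2, at 7.54 against 7.82 and 7.92 and at 6.83 against 7.25 and 7.13. In Panc1, 1 of them was higher (7.85 against 6.61 and 6.66) and 1 lower (6.53 against 7.06 and 7.22). ATF3 was the only gene called, higher by 1.08 (SE 0.43, limma adjusted p = 0.0493), where 23.9% of all genes were called. It was not called without replicate 1, without replicate 3, with background left in, with an offset of 50 or with the deposited log2 values. DDIT3 was higher by 1.35 (SE 0.55, limma adjusted p = 0.0507), and was called with detection on 9 arrays. The fit had 1 spread per gene for all 3 slides. Unlike shifts within slide 2 (DDIT3 -0.65 in SU8686 and 3.15 in Panc1005) therefore widened the SEs on every slide. In Panc1 ATF3 had 7.21 on replicate 2, at least 2.19-fold above replicates 1 and 3, and ATF4 had 12.84 against 11.46 and 11.24. In MiaPaCa2, DDIT3 had 8.45 on replicate 2 against 7.04 and 7.14, while PHGDH had 10.90 against 12.55 and 12.39. CHAC1 was detected on replicate 2 of Panc1 (6.21), at least 1.09-fold higher, and on no array of MiaPaCa2.

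The shift of replicate 2 differed between the 3 slides for 10 of 10 genes by limma's moderated F test, where 78.2% of all genes differed. Without replicate 1, 6 genes and 53.1% of all genes passed, and without replicate 3, 5 genes and 55.6% of all genes. ATF3, CHAC1, SESN2, PHGDH and INHBE passed in both. Of the markers of other cell types, at most 2 of 4 leukocyte, 2 of 4 endothelial, 1 of 5 acinar and 3 of 6 fibroblast markers were detected on any array. Summed fibroblast markers moved most on slide 3, at 459 and 482 on replicate 2 of MiaPaCa2 and Panc1 against 10209 to 16128 on replicates 1 and 3. They were also lower on replicate 2 of SU8686 (584 against 1440 and 1557) and Panc1005 (364 against 709 and 756). On slide 1 they were higher on replicate 2, in Panc0403 (477 against 258 and 260) and Panc0504 (448 against 247 and 280). Summed leukocyte markers, of which CD68 was the 1 detected, were 1609 on replicate 2 of MiaPaCa2 against 464 and 471, 893 on replicate 2 of Panc0403 against 299 and 317, and 831 on replicate 2 of Panc0504 against 412 and 454. Summed acinar markers, of which PRSS1 alone was detected, were 515 on replicate 2 of Panc0403 against 166 and 179, and 1104 on replicate 2 of Panc0504 against 272 and 284. Summed endothelial markers were 1239 on replicate 2 of SU8686, with PECAM1 and CDH5 detected, against 149 and 156. The part of these markers in the shifts was not tested.

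**Figure D3:**
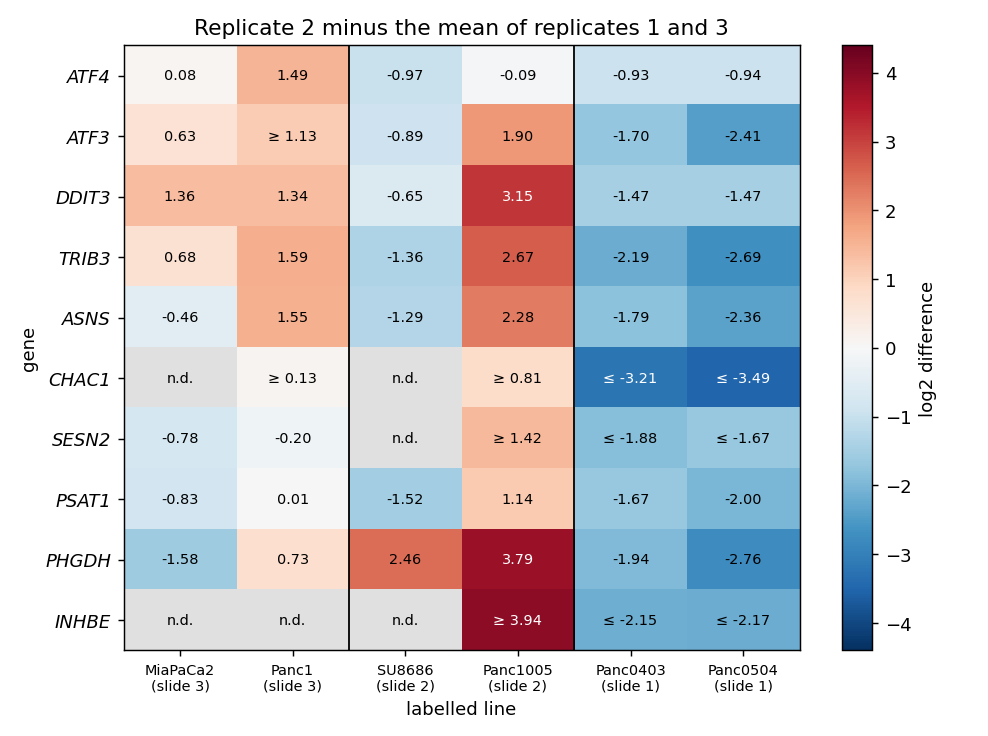
Log2 difference of replicate 2 minus the mean of replicates 1 and 3 (colour and printed value) for each gene (rows) in each labelled line (columns, grouped by slide). Values with ≥ or ≤ are bounds, where the gene was detected on replicate 2 alone or on replicates 1 and 3 alone, and n.d. marks genes detected on no array of the line. Panc0403 and Panc0504 are negative for all 10 genes, Panc1005 is positive for 9, and SU8686, on the same slide as Panc1005, is negative for 6 of its 7 detected genes.

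Several of the 10 genes had a close companion among the rest of the array, measured as the root mean square difference of centred log2 levels over the 18 arrays, undetected levels included. PPP1R15A, which encodes the phosphatase subunit GADD34 that reverses eIF2 phosphorylation, was the nearest gene outside the 10 to ATF3 (0.41), TRIB3 (0.54) and DDIT3 (0.56). The nearest to ASNS was MTHFD2, a mitochondrial enzyme of folate metabolism (0.46), and the nearest to INHBE was SLC1A4, a transporter of neutral amino acids (0.48). ATF4 was nearest to PLS1, an actin bundling protein (0.33), SESN2 to PRKAB2, a regulatory subunit of AMPK (0.36), and PSAT1 to GPAT3, an enzyme of glycerolipid synthesis (0.50). CHAC1 was nearest to SPRR3, a protein of the cornified envelope (0.59), and PHGDH to NSUN7 (0.63). The 10 genes themselves had standard deviations of 0.97 to 1.81 over the arrays, and among them TRIB3 and ATF3 were closest to each other (0.52). The measure describes these arrays and carries no test.

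Of the 4 kinases that start the response, limma called none between responses. In resistant minus sensitive lines on replicates 1 and 3, EIF2AK1 differed by 0.08, EIF2AK2 by 0.08 and EIF2AK4 by 0.27 on the log2 scale, with SEs of 0.26 to 0.27, with limma adjusted p-values from 0.594 to 0.894. EIF2AK3, like the dim genes above, was detected on replicates 1 and 3 of Panc0403 (6.51 and 6.13) and Panc0504 (6.57 and 6.29) and on none of these arrays of the other 4 lines, and it gave no bound above 1-fold (limma adjusted p = 0.749). On replicate 2 it was detected in SU8686 (6.58), Panc1005 (6.82), MiaPaCa2 (6.47), Panc1 (6.45) and Panc0403 (6.16), but not in Panc0504 (5.67). Limma called its shift on slide 2 (1.10, SE 0.18, adjusted p = 0.000148), where 26% of all genes were called. That size rests on undetected values of replicates 1 and 3 in both lines, so a shift of at least 1 is not established. EIF2AK4 was detected on all 18 arrays. Its replicate 2 was called lower on slide 3 (-1.12, SE 0.12, limma adjusted p = 3.33e-06), where 23.9% of all genes were called. It had 7.79 in MiaPaCa2 and 8.20 in Panc1, against means of 9.12 and 9.11 on replicates 1 and 3. Of the 13 genes tested for eIF2 kinases, eIF2, eIF2B and the phosphatase, 8 were higher and 5 lower, with 0 called and a median of 0.08. PPP1R15A had the largest difference there, -2.31 (SE 0.59, limma adjusted p = 0.316). On slide 1, replicate 2 shifted PPP1R15A by -1.18, the 1 gene of these 13 that was called there, where 18.7% of all genes were called.

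Amino acid transporters, several of which ATF4 induces, were mostly lower in resistant lines. There, 8 of 9 tested were lower on replicates 1 and 3, with a median of -1.39 and 0 called. SLC7A11, the cystine transporter, had the largest fitted difference in the list. None of 6 resistant arrays detected it and 4 of 6 sensitive arrays did, a difference of at least 4.97-fold downward (limma adjusted p = 0.316). Its line means were 5.89, 5.02 and 4.91 in MiaPaCa2, Panc1 and SU8686, against 10.49, 9.42 and 5.28 in Panc0403, Panc0504 and Panc1005. The Panc1005 value was not above background and is part of the sensitive mean in that bound. On replicate 2, transporters were lower on slide 1 for 9 of 9, with 5 called, where 18.7% of all genes were, and higher on slide 2 for 9 of 9, with 2 called, where 26% of all genes were. SLC7A11 was called in both, lower on slide 1 and higher on slide 2. The slide 2 shifts average 2 unlike lines. In SU8686, SLC7A5, SLC3A2 and SLC38A1 were slightly lower on replicate 2 (11.73, 10.35 and 10.89 against means of 11.76, 10.44 and 11.02), and the others higher or near background. The 2 called, SLC7A11 and SLC1A4, had 8.65 and 7.85 on replicate 2 of Panc1005. Their other values on that slide were below the level of detected probes.

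The remaining lists were mixed, again with 0 called in resistant minus sensitive lines on replicates 1 and 3. Of 10 tested partners of ATF4 and other transcription factors, 7 were lower (median -0.33), the largest difference being CEBPB, a C/EBP partner (-1.91, SE 0.93, limma adjusted p = 0.344). Of 11 other enzymes of serine, glycine, one-carbon and proline synthesis, 6 were lower (median -0.47). CBS, of the transsulfuration route, had the largest fitted difference, in the higher direction (limma adjusted p = 0.316), against values partly not above background. Its line means were 12.44, 12.05 and 10.28 in MiaPaCa2, Panc1 and SU8686, against 4.89 and 4.83 in Panc0403 and Panc0504, where it was not detected, and 9.74 in Panc1005.

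Of 13 other outputs of ATF4, 9 were lower (median -0.55, or -0.22 with SESN3 at its bound), led by the secreted factor GDF15 at -4.77 (SE 2.33, limma adjusted p = 0.345). GDF15 had line means of 6.45, 6.70 and 8.83 in MiaPaCa2, Panc1 and SU8686 and of 14.45, 15.37 and 6.46 in Panc0403, Panc0504 and Panc1005, so the responses overlapped. Of 17 outputs of ATF6 and XBP1, the other branches of the endoplasmic reticulum stress response, 12 were lower (median -0.54), led by the chaperone HYOU1 at -1.30 (SE 0.58, limma adjusted p = 0.321). Of 9 p53 outputs, 3 were lower (median 0.35), and the cell cycle inhibitor CDKN1A differed most, by -4.20 (SE 1.32, limma adjusted p = 0.316).

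**Figure D4:**
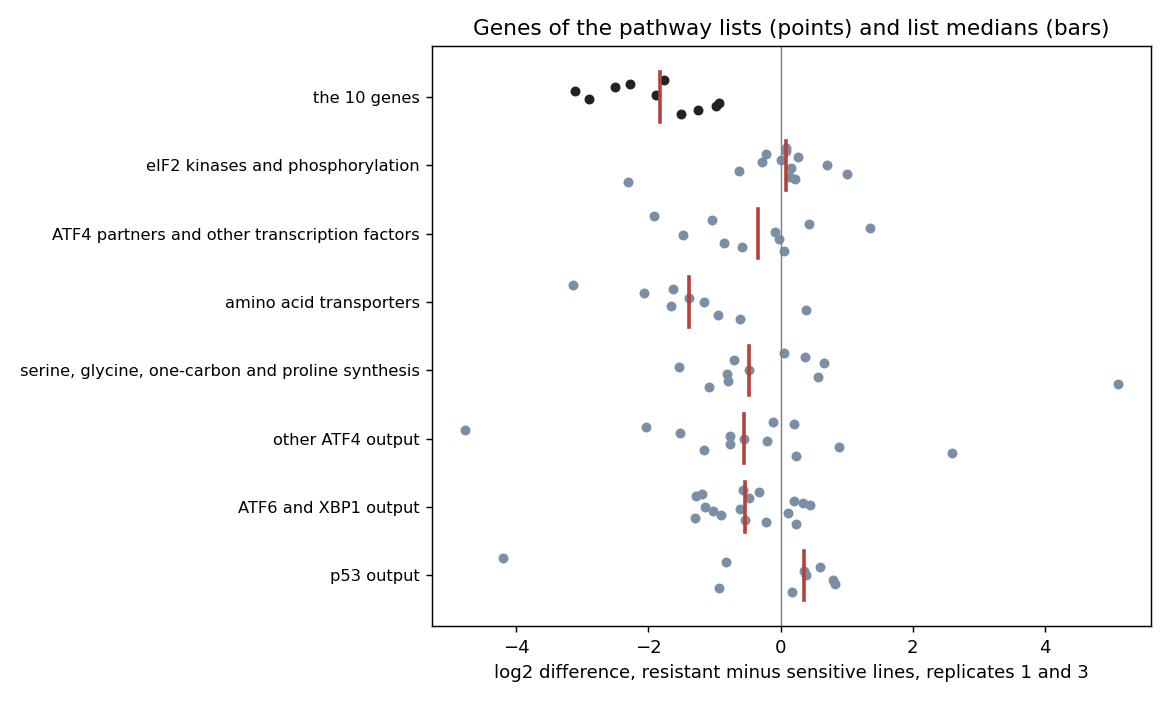
Log2 difference, resistant minus sensitive lines on replicates 1 and 3 (x axis), for each tested gene (points) of the 10 genes and 7 related lists (rows), with list medians as vertical bars. The 10 genes lie between -0.93 and -3.10, the transporters have a median of -1.39, and the eIF2 kinases and their partners centre on 0.08.

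Alternative probes bore on a few of these values. ATF4 had 3 probes, all detected on 18 arrays, with resistant minus sensitive differences on replicates 1 and 3 of -1.76 for the probe used and -1.89 and -0.36 for the others. The probe at -0.36 read SU8686 at 9.05 and 8.58 and Panc1005 at 8.60 and 8.77 on these replicates. It read Panc0403 at 7.55 and 7.66 and Panc0504 at 7.97 and 7.90. On that probe the responses overlapped, and Panc0403 and Panc0504 were not the brightest lines. The second ASNS probe gave -1.45, beside -1.89 for the probe used. The other probes of ATF3 (2) and PSAT1 (1) were detected on 0 arrays and measured nothing, and the remaining 6 genes had 1 probe each.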

How the data were processed

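Total RNA of 18 arrays was read on Illumina bead arrays. Per the file headers, the deposited table gave a linear bead intensity and a detection p-value of 48107 probes per array. No background correction or normalization was visible in the deposited intensity values (median 110.4 to 135.2 per array), and the software is not given in the sources used here. A matrix of log2 values that the authors deposited covered 47323 probes, with its normalization and centring not stated, and served as an alternative. The number of arrays limits the precision.

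Intensities were corrected by normexp, its background inferred from detection p-values and its offset set at 16, and quantile normalized (neqc, limma 3.58.1, R 4.3.3), which understates changes of dim genes. The platform annotation named 1 symbol for 30113 probes. A gene was represented by its brightest probe among those detected (p under 0.01) on at least 3 arrays, giving 11600 genes, tested by limma with Benjamini-Hochberg adjustment. Responses were compared over 3 line means each, with calls at an adjusted p under 0.05. Line pairs and shifts of replicate 2 also needed a log2 difference of at least 1. A bound raises the levels of the side without detection to at least the lowest detected level of each array. In bounds between responses, the mean of the other side includes its undetected arrays at their normalized levels. The scripts were tested on simulated data. The motif was searched in RefSeq promoters with Python 3.11.15.

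Named were all 10 genes, the nearest gene to each, the 4 eIF2 kinases and the gene of largest difference in each list. Companions singled out otherwise (shifts of PPP1R15A, of EIF2AK4 and of amino acid transporters) were chosen after their values were seen. The 10 genes and all lists were chosen with earlier results of these data known. Alternatives were no background correction, an offset of 50, detection on 9 arrays, the authors' log2 values, other probes, blocks for replicate and slide, and leaving out replicates or lines. Between responses, the replicate block was fitted to single arrays with line as a random block.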

Additional observations from a re-analysis of the deposited data

Results flagged for a closer look

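The shift of replicate 2 against replicates 1 and 3 differed between slides for every one of the 10 genes (limma's moderated F test, Benjamini-Hochberg adjusted). On slide 1 the shift was negative for all 10, and on slide 2 it was positive for 8. The slide 2 shift averages 2 unlike lines: replicate 2 was higher for 9 of 10 genes in Panc1005 and lower for 6 of the 7 detected in SU8686. The adjusted p was 1.36e-06 for CHAC1, 5.18e-06 for PHGDH, 5.37e-05 for SESN2, 0.000595 for INHBE and 0.000876 for ATF3. It was 0.0017 for ATF4, 0.00288 for TRIB3, 0.00667 for DDIT3, 0.0157 for ASNS and 0.0349 for PSAT1. Of all genes, 78.2% differed in the same test, and the cause of these shifts was not tested.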

How the results depend on the processing

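Of 736 values of the 10 genes under alternatives, 652 kept their direction and side of the threshold, 27 passed it anew, 34 no longer passed, 11 moved and 12 reversed. The reversals were an undetected second ATF3 probe (0.033 on all arrays, 0.054 on replicates 1 and 3), slide as a block on all arrays (PHGDH 0.229) and on replicates 1 and 3 (DDIT3 0.785, PHGDH 0.672, and CHAC1 0.139, SESN2 0.227 and INHBE 0.18, undetected in both lines of slide 2), and SU8686 minus Panc1005 over 3 replicates (DDIT3 -0.484, CHAC1 -0.620, SESN2 -0.408, INHBE -1.28). Counts of genes called in resistant minus sensitive lines moved most. On all arrays the count of 0 became 3 with a slide block, 2333 without SU8686 and 365 without Panc1005, and ranged from 0 to 2 when 1 replicate was left out. On replicates 1 and 3 it became 1627 without SU8686 and 554 without Panc1005. A further fit took arrays singly, with a replicate block and line as a random block. Its unit was therefore the array and not the line mean. It gave 638 calls on all arrays, with ATF4 among them (limma adjusted p = 0.0463). On replicates 1 and 3 it gave 132, with TRIB3 (limma adjusted p = 0.0433). The fitted correlation of arrays of a line was 0.345 on all arrays and 0.938 on replicates 1 and 3. On replicate 2 the 22 calls became 4 without background correction, 3 with an offset of 50, 1 with detection on 9 arrays, 7 with the authors' values and 2994 with a slide block, which sets 1 SU8686 array against 1 Panc1005 array with a spread taken from the replicate 2 pairs of slides 1 and 3 (r = 0.990 and 0.991 within pairs) and so tests no difference between responses. With all 3 replicates the F test fell to 3460 calls against 7612. Without background correction and with the authors' values, SU8686 minus Panc1005 (562 calls) gave 249 and 235, Panc0504 minus Panc0403 (860) gave 431 and 431, Panc1 minus MiaPaCa2 (312) gave 142 and 139, and the shift of replicate 2 gave 1414 and 1406 on slide 1 (2170) and 2008 and 1959 on slide 2 (3020). SU8686 minus Panc1005 also gave 363 with an offset of 50, and with all 3 replicates the line pairs gave 57, 1 and 0, in the same order. The replicate block rests on shared numbers alone: same-numbered arrays did not all deviate together (correlations from -0.088 to 0.938 over all replicates, above 0.1 in 21 of 45 pairs, and above 0.1 in 1 of 15 pairs on replicates 1 and 3). The cause of each change was not tested. Arrays limit what can be said of CHAC1, SESN2 and INHBE, which were undetected on 9 or more of 18 arrays.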
